A study of Homo sapiens with 15 samples.

Results

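The heat shock transcription factor HSF1 and 9 cytosolic or endoplasmic reticulum (ER) chaperones, namely HSP90AA1, HSP90AB1, HSPA1A, HSPA1B, HSPA8, HSPA5, HSPB1, HSPH1 and DNAJB1, were followed through 5 groups of HT1080 cells, a human fibrosarcoma cell line. These 10 genes were picked by name from the 60675 genes in the count table, because HSP90 is a known substrate of the deacetylase KDAC6 (HDAC6), and each of them was measured and tested. RNA was sequenced from 15 libraries, 3 per group, after removal of rRNA. 6CD1m cells (KDAC6H216A) and 6CD2m cells (KDAC6H611A) carry an alanine in place of a histidine in the first or the second catalytic domain of KDAC6, H216A and H611A, and both were given Tubastatin A, a KDAC6-selective inhibitor, at 1 μM for 2 days. 8CDm cells (KDAC8H143A), with the change H143A in KDAC8 (HDAC8), were given the KDAC8-selective inhibitor PCI-34051 at 5 μM for 2 days. Wild-type (WT) cells were given either inhibitor at the same dose for 14 days. Every group therefore carried an inhibitor, and in each comparison of a mutant line with WT cells genotype and duration differ at once, so their effects cannot be told apart. The sources used here do not say whether each line is 1 clone.

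HSF1 is kept inactive by chaperones in unstressed cells. When misfolded proteins occupy the chaperones, HSF1 forms trimers, binds heat shock elements in promoters and switches on chaperone genes. HSP70 proteins, with J-domain cofactors such as DNAJB1 and nucleotide exchange factors such as HSPH1, fold nascent or damaged proteins and pass some of them on to HSP90. KDAC6 deacetylates HSP90 and also binds ubiquitinated protein aggregates, and in that complex it has been linked to HSF1. HSPA5 (BiP) is the HSP70 of the ER lumen and a standard target of the unfolded protein response (UPR).

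Counts per library summed to between 10932455 and 19983710. Levels are given as CPM, counts relative to the TMM-scaled size of the library, and in bulk RNA fewer cells of a type and less RNA per cell cannot be told apart. The fibroblast markers VIM, CD44, SPARC and COL6A1 were abundant in all libraries (VIM from 2809 to 4887 CPM), while S100A4 and THY1 did not exceed 0.837 and 1.68 CPM. Summed, the 6 fibroblast markers gave 4385 to 4949 CPM in 6CD2m, 4601 to 5920 in 6CD1m, 6021 to 6832 in WT cells on Tubastatin A, 5503 to 7105 in WT cells on PCI-34051 and 4878 to 5296 in 8CDm. EPCAM and PTPRC, which define epithelial and immune cells, did not exceed 0.0556 and 0.0533 CPM, although the macrophage marker CD68 reached 19.2 to 114 CPM. Of the other epithelial markers, CLDN4 lay between 3.76 and 13.1 CPM and ESRP1 reached 1.37 CPM, while CDH1 and KRT5 did not exceed 0.118 and 0.0537 CPM. Of 3 endothelial markers, CDH5 was higher in Tubastatin A-treated 6CD2m than 6CD1m cells (edgeR with Benjamini-Hochberg adjustment, adjusted p = 0.000142). The 3 endothelial markers summed to 2.84 to 3.49 CPM in 6CD2m, 0.491 to 0.842 in 6CD1m, 0.829 to 1.297 in WT cells on Tubastatin A, 0.258 to 0.379 in WT cells on PCI-34051 and 2.76 to 3.28 in 8CDm, and the part of either marker list in the results below was not tested. HDAC6 mRNA was present in every library, at 12.4 to 14.2 CPM in 6CD1m, 22.9 to 25.1 CPM in 6CD2m and 23.4 to 28.1 CPM in WT cells on Tubastatin A, so its transcript was lowest in the first-domain mutant. HDAC8 lay between 12.6 and 19.8 CPM in all libraries. Library 1 of 6CD1m stood apart for several chaperones, and libraries differed in how their gene levels depended on GC content. The Spearman rho between a gene's deviation from its mean level and its GC content ran from -0.388 to 0.593 over libraries (13776 genes), so each difference was also computed with an offset for GC content.

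The inducible HSP70 genes HSPA1A and HSPA1B had close to 2 times the mean level of every other group in 6CD2m cells, and they were the only genes of the 10 called in both comparisons of 6CD2m cells. HSPA1A and HSPA1B lie close together in the major histocompatibility complex on chromosome 6 and encode the same HSP70 protein, which is scarce in unstressed cells and strongly induced by heat. HSPA1A (ENSG00000204389) is a single exon at chr6:31815464-31817946 and HSPA1B (ENSG00000204388) a single exon at chr6:31827735-31830255, both on the plus strand of GRCh38. In Tubastatin A-treated 6CD2m cells HSPA1A measured 80.1, 78.1 and 76.6 CPM. It measured 37.6, 42.2 and 36.8 CPM in 6CD1m cells on the same treatment and 47.6, 42.2 and 37.6 CPM in WT cells on Tubastatin A. On PCI-34051 it measured 46.4, 39.6 and 43.6 CPM in 8CDm cells and 42.5, 43.5 and 41.6 CPM in WT cells. All 3 libraries of 6CD2m thus lay above all 12 others, and the other groups overlapped one another. HSPA1B followed the same course, at 149, 167 and 145 CPM in 6CD2m, 69.4, 80.9 and 58.9 CPM in 6CD1m and 66.5, 69.8 and 87.5 CPM in WT cells on Tubastatin A. In the PCI-34051 groups it lay at 63.0, 76.0 and 79.7 CPM in 8CDm and 88.7, 79.5 and 85.8 CPM in WT cells.

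**Figure D1:**
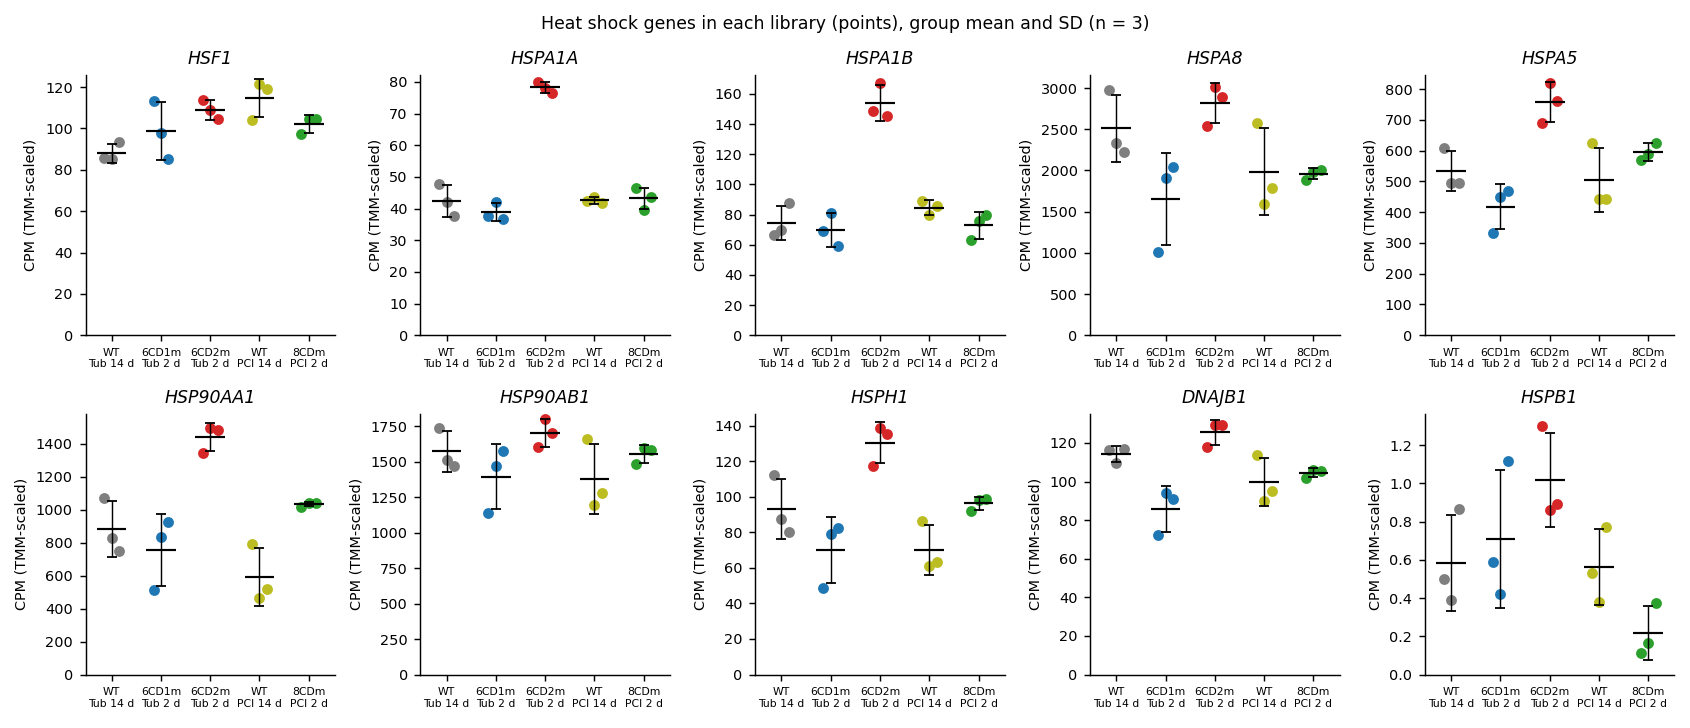
Level of each of the 10 genes in CPM (y axis, from 0) in every library (points) for the 5 groups (x axis; Tub, Tubastatin A; PCI, PCI-34051; d, days), with the group mean (line) and SD (error bar, n = 3). HSPA1A and HSPA1B in 6CD2m cells lie above every other library, and library 1 of 6CD1m is the lowest for HSPA8, HSPA5, HSP90AB1, HSPH1 and DNAJB1.

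The excess of 6CD2m over WT cells given Tubastatin A was 0.88 ± 0.10 on the log2 scale (SE; 1.84-fold) for HSPA1A and 1.05 ± 0.13 (2.06-fold) for HSPA1B, with edgeR adjusted p = 6.75e-06 and 2.29e-05. These were 2 of the 10 genes, both higher, against 11.8% of the 19535 genes tested that passed the study's false discovery rate of 0.001 in this comparison and 4.6% that passed and were higher. Against 6CD1m cells, which shared the inhibitor, dose and 2-day treatment, the difference was 1.01 ± 0.10 (2.01-fold) for HSPA1A and 1.14 ± 0.13 (2.21-fold) for HSPA1B, with edgeR adjusted p = 2.18e-06 and 1.15e-05. Each of these calls held under every alternative computed.

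No call was made for either gene in the other comparisons. Between 6CD1m and WT cells on Tubastatin A, 8CDm and WT cells on PCI-34051, and WT cells on either inhibitor, the 95% intervals of the log2 difference lay between -0.34 and 0.23 for HSPA1A and between -0.50 and 0.19 for HSPA1B, which leaves out differences as large as those fitted for 6CD2m. With GC offsets the difference of HSPA1A between 8CDm and WT cells became 0.35 with an interval from 0.08 to 0.62 (edgeR adjusted p = 0.0447).

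Whether the step from WT to mutant was alike in the KDAC6 and the KDAC8 experiment was asked by an interaction term, in which line and inhibitor changed together. The step was larger in 6CD2m by 0.86 ± 0.14 for HSPA1A and by 1.26 ± 0.19 for HSPA1B on the log2 scale, with edgeR adjusted p = 0.000437 and 0.000202. These 2 of 10 genes compare with 5.16% of all genes called. HSPA1B kept this call under all 23 alternatives, but HSPA1A lost it in 9 of the 12 fits that left out a library, with GC offsets (0.67, edgeR adjusted p = 0.0114) and with the replicate number as a block (adjusted p = 0.00124).

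Because 63.2% of the 150-base windows of HSPA1A and 70.0% of those of HSPA1B occur in the other gene or in the read-through gene AL671762.1, the division of reads between the copies is uncertain. Their sum was 222 to 246 CPM in 6CD2m, 95.7 to 123 CPM in 6CD1m and 112 to 125 CPM in WT cells on Tubastatin A. Fitted as 1 gene, it was higher in 6CD2m by 0.99 ± 0.10 (log2) than in WT cells and by 1.10 ± 0.10 than in 6CD1m cells (edgeR adjusted p = 1.71e-06 and 7.69e-07). HSPA1B took 66.2% ± 1.71 (SD, n = 3) of the sum in 6CD2m and 64.0% ± 2.18 in 6CD1m, a share that differed by less than the spread in WT cells on Tubastatin A (63.5% ± 5.93).

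Promoter windows from RefSeq (GRCh38.p14, from 250 bases before to 50 after each start) were found for 9 of the 10 genes, 14 windows in all. An HSF1 trimer binds inverted repeats of the unit nGAAn, and windows were searched on both strands for 2 units (GAANNTTC or TTCNNGAA) and for 3 units (the same with a further GAA or TTC, turned the other way, after 2 bases of any kind), every match to 3 units being also a match to 2. Elements of 2 units stood in 8 of the 14 windows, from 7 genes, against 13.5% of all 35116 windows, and 3-unit elements in 3 of the 14, from HSP90AA1, HSP90AB1 and HSPA8, against 0.49%. The stretches around the elements of the HSP70 pair, which moved together in 6CD2m, are shown with those of HSP90AB1 and DNAJB1, which also carry elements but were not called against WT cells. Capitals mark the 2-unit or 3-unit element, and no stretch overlaps an annotated exon. HSP90AB1 and DNAJB1 held further elements that are not shown.
HSPA1A (chr6:31815402-31815463, plus strand): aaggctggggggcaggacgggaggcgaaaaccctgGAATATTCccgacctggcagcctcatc
HSPA1B (chr6:31827598-31827675, plus strand): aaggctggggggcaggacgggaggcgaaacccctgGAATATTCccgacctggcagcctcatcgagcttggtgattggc
HSP90AB1 (chr6:44247796-44247865, plus strand): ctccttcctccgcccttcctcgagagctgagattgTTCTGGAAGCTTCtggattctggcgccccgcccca
DNAJB1 (chr19:14518421-14518509, minus strand): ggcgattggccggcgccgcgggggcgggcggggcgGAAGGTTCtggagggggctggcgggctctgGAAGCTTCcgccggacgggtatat

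Over the 62 bases that both stretches cover, HSPA1A and HSPA1B were identical at 61, the element included. A match is a string of letters and no measurement of binding. Of the genes with a 3-unit element, in 6CD2m against WT cells HSP90AB1 differed by 0.12 ± 0.13, HSPA8 by 0.17 ± 0.22 and HSP90AA1 by 0.70 ± 0.21 on the log2 scale (edgeR adjusted p = 0.555, 0.613 and 0.0183).

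HSF1 itself, the transcription factor (ENSG00000185122, chromosome 8), passed 0.001 in none of the comparisons in the fit of all 15 libraries by TMM alone. It measured 85.5, 85.1 and 93.4 CPM in WT cells on Tubastatin A, 113, 97.9 and 85.1 CPM in 6CD1m and 114, 109 and 104 CPM in 6CD2m. In the PCI-34051 groups it measured 104, 121 and 119 CPM in WT cells and 97.3, 105 and 105 CPM in 8CDm. The 6CD2m libraries lay above those of WT cells on Tubastatin A, but the difference of 0.31 ± 0.10 did not pass 0.001 (edgeR adjusted p = 0.0302). With GC offsets it was 0.49 ± 0.07 and passed (edgeR adjusted p = 3.25e-05), and against 6CD1m cells the difference was 0.14 ± 0.10 without offsets (adjusted p = 0.278) and 0.51 ± 0.07 with them (adjusted p = 1.96e-05). HSF1 has the highest GC content of the 10 genes (64.7%). In 8CDm against WT cells the offsets turned its sign, from -0.17 ± 0.10 (edgeR adjusted p = 0.218) to 0.28 ± 0.07 (adjusted p = 0.00444). Between WT cells on Tubastatin A and on PCI-34051 it differed by -0.38 ± 0.10 (edgeR adjusted p = 0.0308) with no overlap between libraries, and by -0.08 ± 0.07 with GC offsets (adjusted p = 0.475). In a fit of these 6 libraries alone with the replicate number as a block it passed, at -0.41 ± 0.07 (adjusted p = 0.000722). Part of the annotated exons of HSF1 (272 bases) is shared with DGAT1 and AC233992.1 on the other strand, and whether counting used strand is not given in the sources used here. Exons of DNAJB1 (309 bases, TECR and MIR639) and HSP90AA1 (197 bases, WDR20) also overlap genes on the other strand. Those of HSPA8 overlap SNORD14D and SNORD14C on the same strand (175 bases).

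The constitutive HSP70, HSPA8 (HSC70), which folds new proteins and uncoats clathrin vesicles, was first or second of the 10 transcripts per kilobase of exon in every group. It measured 1009, 1908 and 2045 CPM in 6CD1m cells, where the first library lay far below the others. In 6CD2m cells it measured 2542, 3013 and 2895 CPM, and in WT cells on Tubastatin A 2977, 2331 and 2224 CPM, ranges that overlap. PCI-34051 groups had 1881, 1985 and 2009 CPM in 8CDm and 2579, 1589 and 1789 CPM in WT cells. The difference of 6CD2m from 6CD1m was 0.77 ± 0.22 (log2; edgeR adjusted p = 0.0128), short of the threshold. Exon length counts the bases in any annotated exon of a gene, 4849 for HSPA8, 2483 for HSPA1A and 2521 for HSPA1B. Ratios between genes therefore depend on the annotation. Per kilobase of annotated exon, HSPA8 was 6.28 ± 0.507 times (mean ± SD, n = 3) as abundant as HSPA1A and HSPA1B together in 6CD2m cells and 11.1 ± 2.16 times in WT cells on Tubastatin A, and it was the higher in 15 of 15 libraries.

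HSPA5 (ENSG00000044574) is the ER member of the HSP70 family. It measured 690.4, 822 and 760.3 CPM in 6CD2m, 334, 449 and 470.1 CPM in 6CD1m and 609.7, 496 and 496 CPM in WT cells on Tubastatin A. The 6CD2m libraries were above both other groups without overlap. The PCI-34051 groups also lay below 6CD2m, at 570.4, 589 and 626 CPM in 8CDm and 625, 443 and 444 CPM in WT cells. The difference of 6CD2m from 6CD1m was 0.86 ± 0.15 on the log2 scale (1.81-fold; edgeR adjusted p = 0.000427), which made HSPA5 the third of 3 genes called higher in this comparison, against 13.2% of all genes called and 6.65% called and higher. Same-numbered libraries of 6CD1m and 6CD2m deviated together, though the labels do not pair them. A block by replicate number over all 15 libraries ended the call (0.86, adjusted p = 0.00177), as did a fit of the 6 libraries of 6CD1m and 6CD2m alone without a block (0.88, adjusted p = 0.00198). With the block in the 6 libraries alone the call was kept (0.89 ± 0.11, adjusted p = 0.000125). It was also lost without library 1 or 2 of 6CD1m, or library 2 or 3 of 6CD2m (log2 difference 0.72 to 1.01, adjusted p = 0.000485 to 0.00322 over all 6 such fits), and was stronger with GC offsets (0.79 ± 0.10, adjusted p = 1.99e-05). The difference from WT cells, 0.51 ± 0.15, did not pass (edgeR adjusted p = 0.0173) and passed with GC offsets (0.57 ± 0.10, adjusted p = 0.00039).

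The promoter of HSPA5 held no heat shock element as searched but was the only one of the 14 windows with an ER stress element (CCAAT, 9 bases of any kind and CCACG, in either orientation), to which the UPR factors bind. This element stood in 0.0769% of all windows. It is shown in capitals.
HSPA5 (chr9:125241356-125241444, minus strand): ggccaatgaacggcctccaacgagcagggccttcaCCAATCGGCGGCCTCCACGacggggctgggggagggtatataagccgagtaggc

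HSPH1 (HSP110), the exchange factor that releases ADP from HSP70, measured 117, 139 and 135 CPM in 6CD2m, 48.7, 79.2 and 82.5 CPM in 6CD1m and 112, 87.5 and 79.9 CPM in WT cells on Tubastatin A. WT cells on PCI-34051 gave 86.4, 61.2 and 63.1 CPM and 8CDm cells 91.9, 98.3 and 98.6 CPM. Every 6CD2m library was above every other library of this gene. The difference from 6CD1m, 0.89 ± 0.18 (edgeR adjusted p = 0.00146), fell just short of 0.001 and passed it with GC offsets (0.62 ± 0.09, adjusted p = 9.03e-05). Its difference from WT cells was 0.48 ± 0.18 (edgeR adjusted p = 0.0533).

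DNAJB1 (HSP40), the J-domain protein that delivers clients to HSP70 and is itself a classical HSF1 target, had its lowest mean in 6CD1m cells. Values there were 72.1, 94.3 and 90.9 CPM, against 116, 109.6 and 117 CPM in WT cells on Tubastatin A and 118, 129 and 129 CPM in 6CD2m cells. 8CDm cells gave 102, 106 and 105 CPM and WT cells on PCI-34051 114, 89.9 and 95.3 CPM. The difference of 6CD2m from 6CD1m was 0.55 ± 0.11 (edgeR adjusted p = 0.00106), just short of 0.001, and became 0.68 ± 0.11 with GC offsets (adjusted p = 0.000157). The difference of 6CD1m from WT cells was -0.41 ± 0.11 (edgeR adjusted p = 0.0302), with no overlap between libraries, while 6CD2m differed from WT cells by 0.14 ± 0.11 (adjusted p = 0.369).

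The HSP90 genes, whose products are the KDAC6 substrate, differed in how far they moved. HSP90AA1, the stress-inducible isoform, measured 1341, 1497 and 1482 CPM in 6CD2m, above all other libraries. Values were 510.0, 832 and 925 CPM in 6CD1m and 1073, 827 and 752 CPM in WT cells on Tubastatin A. In the PCI-34051 experiment 8CDm cells, at 1019, 1043 and 1039.7 CPM, lay above WT cells at 793, 464 and 518 CPM. The log2 differences were 0.70 ± 0.21 for 6CD2m against WT cells, 0.93 ± 0.21 against 6CD1m cells and 0.80 ± 0.21 for 8CDm against WT cells, with edgeR adjusted p = 0.0183, 0.00301 and 0.00837. None passed 0.001. With GC offsets the first became 0.76 ± 0.15 and the second 0.85 ± 0.15, which passed (adjusted p = 0.000852 and 0.000347), and the last became 0.69 ± 0.15 (adjusted p = 0.00248).

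HSP90AB1, the constitutive isoform, measured 1604, 1804 and 1705 CPM in 6CD2m, 1137, 1471 and 1575 CPM in 6CD1m and 1739, 1514 and 1468 CPM in WT cells on Tubastatin A. WT cells on PCI-34051 gave 1659, 1196 and 1280.4 CPM and 8CDm cells 1482, 1599.5 and 1585 CPM. Its largest log2 difference in any comparison was 0.29 ± 0.13, for 6CD2m against 6CD1m (edgeR adjusted p = 0.0972). The ratio of HSP90AA1 to HSP90AB1 per kilobase of exon was 0.480 ± 0.0120 (mean ± SD, n = 3) in 6CD2m, 0.303 ± 0.0424 in 6CD1m, 0.317 ± 0.0305 in WT cells on Tubastatin A, 0.378 ± 0.0111 in 8CDm and 0.241 ± 0.0272 in WT cells on PCI-34051. HSP90AB1 was the higher in 15 of 15 libraries.

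HSPB1 (HSP27), a small heat shock protein that holds unfolded clients and is abundant in many tumour cells, had between 2 and 22 counts in a library. The values were 1.302, 0.861 and 0.890 CPM in 6CD2m and 0.114, 0.163 and 0.376 CPM in 8CDm, with all other libraries from 0.379 to 1.12 CPM. Its difference between 8CDm and WT cells on PCI-34051 was -1.33 ± 0.57 (edgeR adjusted p = 0.0804). Between 6CD2m and WT cells the 95% interval ran from -0.25 to 1.81, which includes a 2-fold rise.

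**Figure D2:**
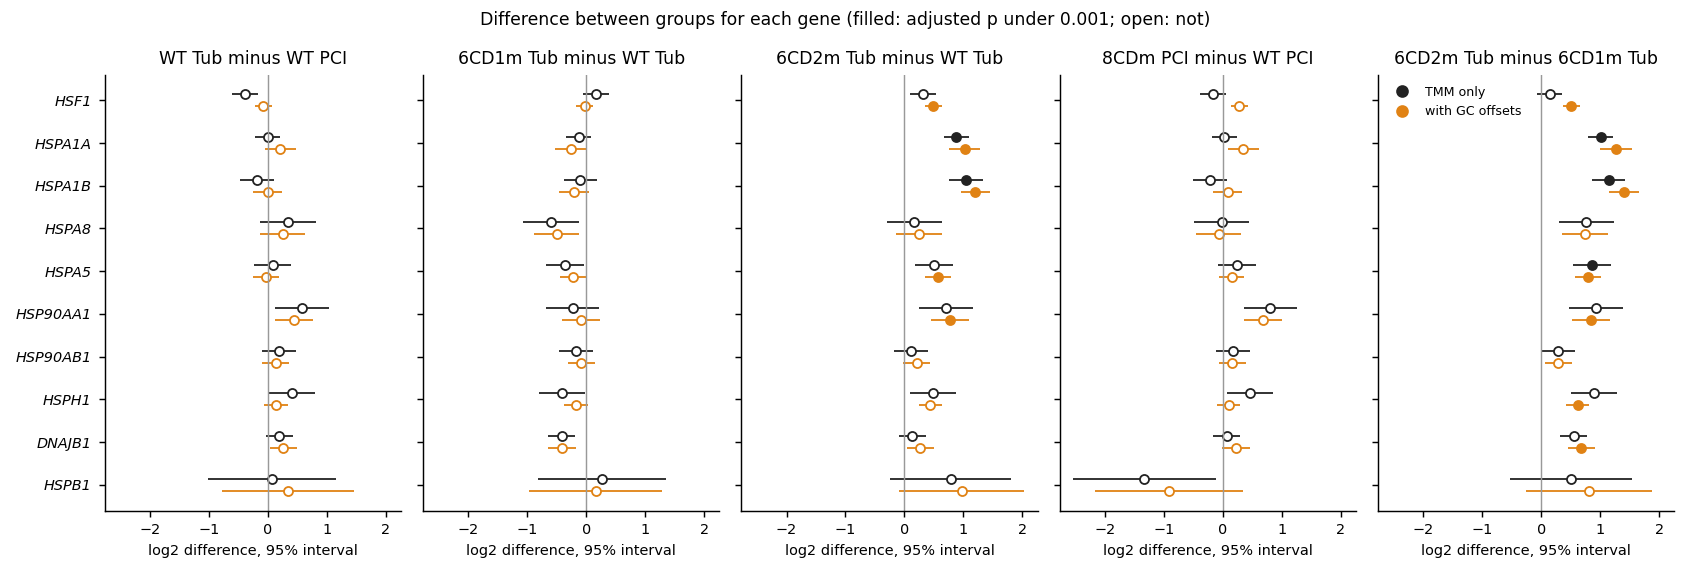
Log2 difference (x axis) of each gene (y axis) in the 5 comparisons of groups, as point and 95% interval from edgeR, without (black) and with (orange) GC offsets; filled points passed an adjusted p of 0.001. In the comparisons of 6CD2m cells every point lies right of 0, and HSPA1A and HSPA1B are filled in both fits.

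Seen together, the 10 genes all had a positive difference in 6CD2m cells, against WT cells (median log2 difference 0.49, against -0.01 over all genes) and against 6CD1m cells (median 0.81, against -0.05). This held for every gene that could be fitted in each of 19 settings. Against WT cells the libraries of 6CD2m did not overlap those of the other group for 7 of the 10 genes, all higher, where 23.6% of all genes were higher without overlap. Against 6CD1m the count was 8 of 10, all higher, beside 26.2% of all genes. At a false discovery rate of 0.05 the calls were 5 of 10 against WT cells (32.8% of all genes called) and 7 of 10 against 6CD1m cells (40.4%). The other comparisons gave 1 of 10 between the WT groups (9.48%), 1 in 6CD1m (9.45%), 1 in 8CDm (36.1%), 3 in the interaction (19.3%) and 9 over the 5 groups (61.9%). Both comparisons share the 6CD2m libraries and are not independent.

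In 6CD1m against WT cells on Tubastatin A the median was -0.20 and 2 of 10 differences were positive. No gene of the 10 was called in this comparison (edgeR; 0.793% of all genes called), with 4 at an unadjusted p under 0.05 and 0 called by DESeq2. Nor was any called between WT cells on either inhibitor (0.42% of all genes called), where 3 had an unadjusted p under 0.05 and DESeq2 called 0. The labels do not say that the replicate numbers pair these groups. With the numbers as a block in these 6 libraries alone HSF1, HSP90AA1 and HSPH1 were called, 3 of the 9 genes fitted. In all, 2015 of the 17263 genes in that fit were called. In the KDAC8 experiment edgeR called 0 of the 10 against 11% of all genes, with 3 at an unadjusted p under 0.05, and DESeq2 called 1, HSP90AA1, as edgeR did without library 1 of the WT cells (1.08, adjusted p = 0.000718). The median there was 0.04 with 6 of 10 positive. A test for any difference among the 5 groups called HSPA1A and HSPA1B, 2 of 10 against 24.6% of all genes.

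By level per kilobase of annotated exon, the order in WT cells on Tubastatin A began with HSP90AB1 and HSPA8, at 528 ± 48.6 and 518 ± 84.1 CPM per kilobase (mean ± SD, n = 3), whose libraries overlapped. HSP90AA1 (168 ± 32.1) and HSPA5 (137 ± 16.8) followed and overlapped each other, then DNAJB1 (31.1 ± 1.12) and HSPA1B (29.6 ± 4.47), which also overlapped. HSPA1A (17.1 ± 2.02) and HSF1 (16.6 ± 0.882) could not be separated, and HSPH1 (11.1 ± 2.01) and HSPB1 (0.358 ± 0.153) closed the list. This order depends on the annotated exon bases, 8390 for HSPH1 and 5307 for HSF1 beside 2483 for HSPA1A. In 6CD2m cells HSPA1B (61.1 ± 4.70) lay apart from and above DNAJB1 (34.2 ± 1.78), and HSPA1A (31.5 ± 0.710) lay apart from and above HSF1 (20.5 ± 0.890).

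Over the 15 libraries the 8 chaperones other than HSPB1 had Pearson r of 0.402 to 0.961 with each other in log2 CPM (28 pairs), as a description of points that share groups, depth and GC trend. HSP90AA1 and HSPH1 were the most alike (0.961) and HSP90AB1 and HSPA1B the least. HSF1 mRNA ran from -0.447 with HSP90AB1 to 0.459 with HSPA1B. The GC trend of a library moved with several of these levels. Its r with log2 CPM was -0.913 for HSP90AA1, -0.874 for HSPH1 and -0.864 for HSP90AB1, genes of 40.0% to 48.1% GC, but -0.469 for HSPA1A and -0.21 for HSPA1B, which have 59.7% and 58.7% GC.

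**Figure D3:**
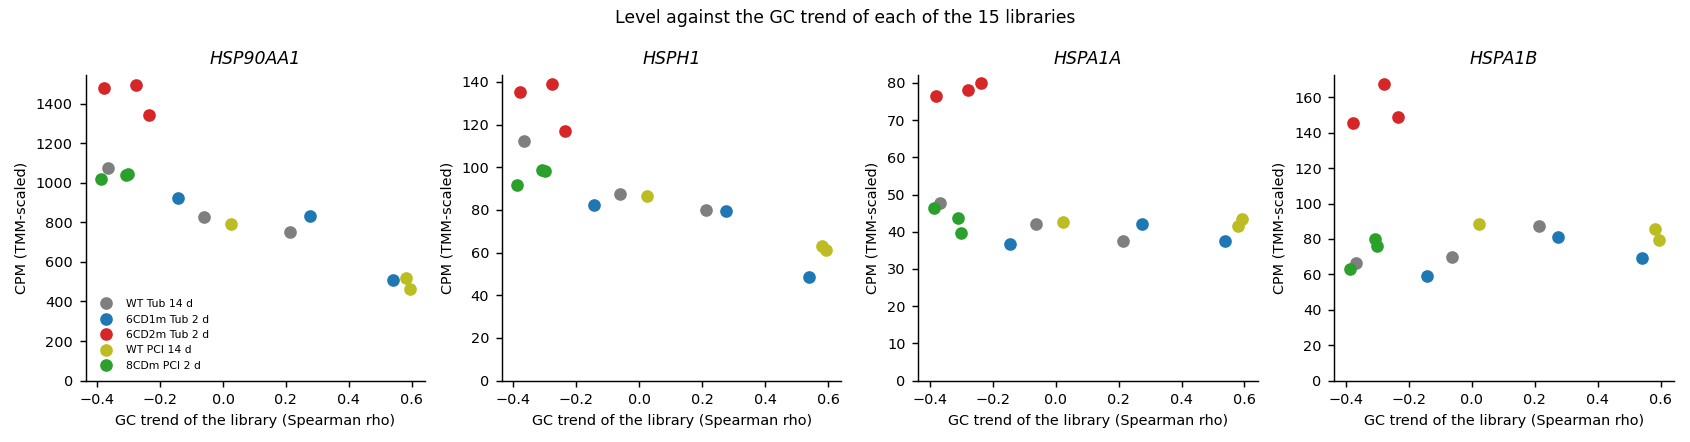
Level in CPM (y axis, from 0) of 4 of the genes against the GC trend of each of the 15 libraries (x axis, Spearman rho between a gene's deviation and its GC content; colours give the groups). The 3 libraries of 6CD2m stand above all others for each of the 4 genes, and among the other 12 libraries HSP90AA1 and HSPH1 are lower where the trend is higher.

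The genes whose pattern over the 15 libraries was most like that of 4 of the 10 were taken from 10521 candidates. For HSPA1A they were FAM84B, DPY19L3 and SFMBT2 (r = 0.964, 0.956 and 0.955). For HSP90AA1 they were DHX40, YWHAG and KCTD20 (0.988, 0.988 and 0.985), for HSPA5 SLC9A7, NOMO1 and IARS (0.99, 0.986 and 0.983), and for HSF1 TSC2, PARP10 and EXOC3 (0.944, 0.937 and 0.933). No other chaperone of the lists below was among them.

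Chaperones and cofactors around the 10 genes moved unevenly in 6CD2m cells. The largest called difference of these lists was in a small heat shock protein, HSPB8, which with BAG3 directs clients to autophagy. It measured 16.3, 17.6 and 17.3 CPM in 6CD2m, and 1.14 to 3.54 CPM in all other libraries, a log2 difference of 2.45 ± 0.23 from WT and 3.30 ± 0.25 from 6CD1m cells (edgeR adjusted p = 1.35e-06 and 1.77e-07). BAG3 went the other way, at 62.0, 68.1 and 64.2 CPM in 6CD2m and 74.4 to 91.9 CPM in all other libraries, and was not called. HSPB8 was the only called gene of 3 tested in its list, and its step from WT cells was 3.35 ± 0.35 larger than in the KDAC8 experiment (adjusted p = 8.39e-06). Among 13 J proteins and exchange factors, DNAJB6, which suppresses aggregation of polyglutamine proteins, rose by 0.77 ± 0.07 against WT and by 0.69 ± 0.07 against 6CD1m cells (adjusted p = 9.16e-07 and 3.32e-06), 1 of 13 called in each. With GC offsets 3 of 13 were called higher against WT and 4 of 13 against 6CD1m cells. Of all 19535 genes, 1585 and 1824 were called higher with the offsets, and 899 and 1299 without.

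Of 13 HSP90 co-chaperones, CDC37, which loads kinases onto HSP90, rose (0.59 ± 0.10) and the ubiquitin ligase STUB1 (CHIP) fell (-0.55 ± 0.10) against WT cells (edgeR adjusted p = 0.000272 and 0.000483). Against 6CD1m cells PPID, a cyclophilin, rose (1.04 ± 0.19, adjusted p = 0.000685). In 8CDm against WT cells STUB1 also fell (-0.95 ± 0.10, adjusted p = 3.91e-06) and CHORDC1, an HSP90-binding protein, rose (0.62 ± 0.11, adjusted p = 0.000511), as did DNAJC7 (0.47 ± 0.09), while the exchange factor HSPBP1 fell (-0.69 ± 0.09, adjusted p = 0.000756 and 3.28e-05). The fall of STUB1 lost its call with GC offsets, at -0.38 in 6CD2m and -0.52 in 8CDm cells (edgeR adjusted p = 0.0199 and 0.0035). So did CHORDC1 (0.04, adjusted p = 0.715) and HSPBP1 (-0.25, adjusted p = 0.0886) in 8CDm cells. With GC offsets 1 of the 13 co-chaperones was called higher and 2 lower in 8CDm against WT cells. Of the 13 J proteins and exchange factors 3 were called higher and 1 lower, beside 1045 and 1234 of all 19535 genes.

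Of 7 other HSP70 and HSP110 genes, HSPA12A, a distant relative of the family, fell against WT (-0.67 ± 0.09) and 6CD1m cells (-0.73 ± 0.09; edgeR adjusted p = 4.9e-05 and 2.83e-05). Among 8 other heat shock factors and regulators the acetyltransferase EP300, which acetylates HSF1, fell by 0.89 ± 0.08 on the log2 scale against WT and against 6CD1m cells (adjusted p = 7.43e-07 and 8.44e-07). HDAC6 was the other called gene of that list, lower in 6CD1m than WT cells (-0.97 ± 0.12, adjusted p = 0.000241), higher in 6CD2m than 6CD1m (0.90 ± 0.12, adjusted p = 5.42e-05) and lower in 8CDm than WT cells (-0.66 ± 0.12, adjusted p = 0.000637), the last not called with GC offsets (-0.41, adjusted p = 0.0101). Of 9 mitochondrial chaperones HSPA9 (mortalin) rose against 6CD1m cells (1.03 ± 0.18, adjusted p = 0.000364). The 8 subunits of the chaperonin TRiC, which folds actin and tubulin, differed from WT cells by -0.41 to 0.19 with a median of -0.10, and the smallest edgeR adjusted p was 0.0701 (1 of 8 at an unadjusted p under 0.05).

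ER chaperones and UPR genes included 7 calls in 6CD2m against 6CD1m cells. Of the 20 genes tested, 6 rose and 1 fell, beside 13.2% of all genes called and 6.65% called and higher. With GC offsets 7 rose and 0 fell, the fall of CRELD2 missing the threshold (-0.48, edgeR adjusted p = 0.00583). In that fit 1824 of all 19535 genes were called higher and 1523 lower. Those with the smallest adjusted p were SERPINH1, the collagen chaperone HSP47 (1.41 ± 0.10), the J protein DNAJB9 (2.06 ± 0.24), the exchange factor HYOU1 (0.71 ± 0.11) and HERPUD1, a part of ER-associated degradation (0.96 ± 0.15), with edgeR adjusted p from 4.75e-08 to 0.00016. Against WT cells 3 rose, SERPINH1 (1.23 ± 0.09), DNAJB9 (1.37 ± 0.23) and HYOU1 (0.71 ± 0.11), and CRELD2 fell (-1.03 ± 0.12), with adjusted p from 1.56e-07 to 0.000272. SERPINH1 measured 266, 295 and 262 CPM in 6CD2m against 103 to 121 CPM in 6CD1m and WT cells on Tubastatin A. The median of the 20 genes was 0.28 against WT and 0.52 against 6CD1m cells. In 8CDm against WT cells PDIA4 (-1.07 ± 0.17) and CRELD2 (-1.30 ± 0.13) fell (edgeR adjusted p = 0.000255 and 2.24e-06). The median of the 20 was 0.29 there, with 14 differences above 0, of which 8 passed a false discovery rate of 0.05 and 0 passed 0.001 (1 with GC offsets, HERPUD1). A further 2 of the 20 passed 0.05 and were lower, and 36.1% of all genes passed 0.05 in this comparison.

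**Figure D4:**
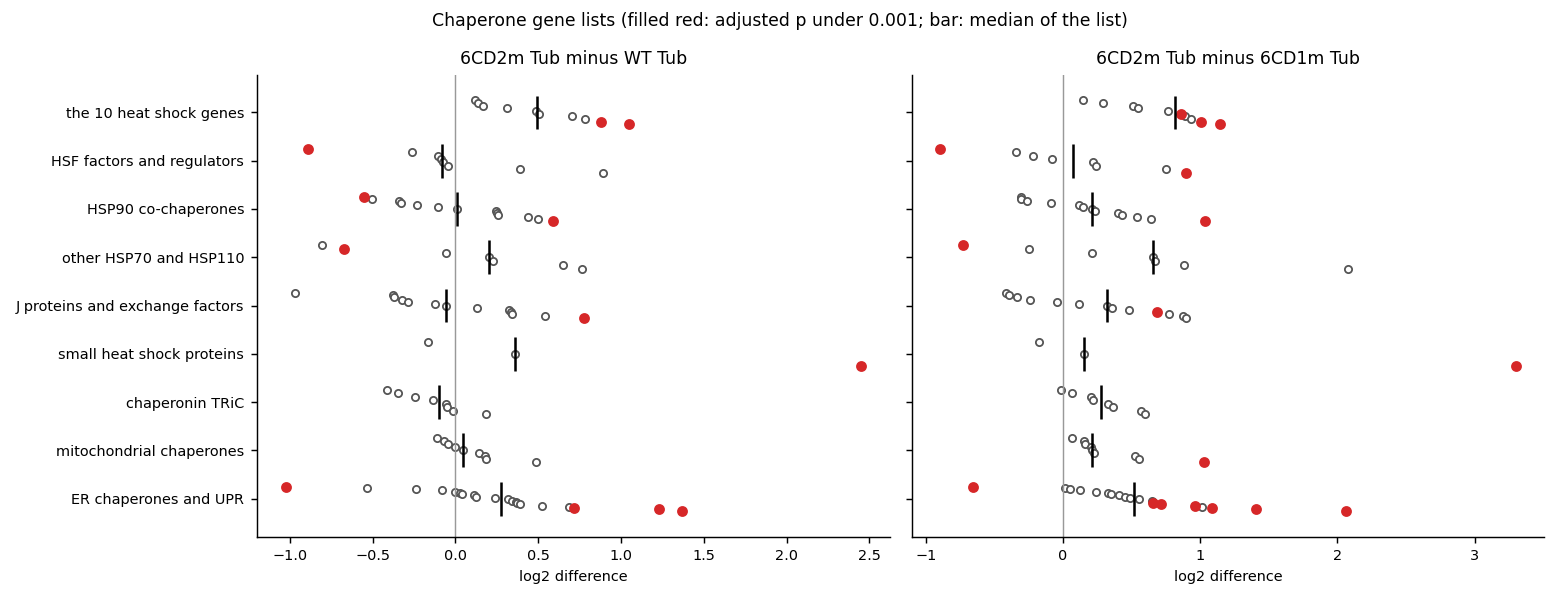
Log2 difference (x axis) of every tested gene of 9 lists (rows) in 6CD2m cells against WT and against 6CD1m cells on Tubastatin A; filled red points passed an adjusted p of 0.001 in edgeR and bars mark list medians. The point at the far right in each panel is HSPB8, and all 10 heat shock genes lie right of 0 in both panels.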

How the data were processed

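Per the labels' processing notes, the authors used Trimmomatic 0.39, Bowtie2 2.4.5 and RSEM 1.3.3 on GRCh38, with DESeq2 1.38.2. They deposited expected counts per gene. These were not normalized, 21.8% of those above 0 had decimals, and rounding made them whole. Library totals had a median of 17551887. Positions, exon lengths and GC content came from GENCODE 29 by identifier (57055 genes matched).

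Genes were filtered with edgeR 4.0.16 (R 4.3.3), which kept 19535, and scaled by TMM. All 15 libraries entered 1 quasi-likelihood fit with a mean per group, and p-values were adjusted by Benjamini-Hochberg over all genes at the study's false discovery rate of 0.001. The fit was tested on simulated counts that had no GC trend and no outlying library, so that test does not cover these features. Log2 differences are given ± SE. The study calls its replicates biological, but the labels do not say whether they were separate cultures. The p-values therefore measure the spread between these libraries. Same-numbered libraries deviated together between 6CD1m and 6CD2m (r = 0.391, 0.109 and 0.169) and between the WT groups (0.754, 0.453 and 0.423), and not in the other pairs of groups. The labels do not say that the numbers pair libraries, and libraries of different number were not compared. Whether they are paired was therefore not tested, and the block is only an alternative fit.

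The 10 genes and all lists were chosen with earlier results of these data known. From each other list at most the 4 called genes with the smallest adjusted p in a comparison were named, with HDAC6 and HDAC8, and the 3 most similar genes (average log2 CPM of at least 3) for 4 of the 10. HSPB8, BAG3 and SERPINH1 values per library, and the marker genes, were added after their values were seen. Alternatives were DESeq2 1.42.0, other scalings and filters, a false discovery rate of 0.05, only the libraries compared, a replicate block, GC offsets (a smooth curve of log2 ratio against GC content, 99.2% of tested genes with a value), HSPA1A and HSPA1B summed and leaving out each library. The block within only the libraries compared was added after seeing the data.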

Additional observations from a re-analysis of the deposited data

Results flagged for a closer look

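The step from WT cells on the same inhibitor to the mutant line differed between the KDAC6 experiment (6CD2m, Tubastatin A) and the KDAC8 experiment (8CDm, PCI-34051) for HSPA1A, by 0.86 on the log2 scale (edgeR interaction term, adjusted p = 0.000437), and for HSPA1B, by 1.26 (adjusted p = 0.000202). In the first experiment all 3 mutant libraries lay above all 3 WT libraries for both genes, and in the second the libraries overlapped. Line, inhibitor and dose changed together between the experiments and cannot be told apart. The copies share most of their sequence, so they are not independent observations, and their sum gave 1.12 ± 0.14 (adjusted p = 3.16e-05).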

How the results depend on the processing

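Of 18 differences of single genes with an adjusted p under 0.05, recomputed 339 times in all, 0 reversed; 290 values kept their side of 0.001, 18 fell short of it (HSPA5 in 6CD2m against 6CD1m and HSPA1A in the interaction) and 31 newly passed it. The causes were not tested. Upper-quartile scaling moved the median of all genes to 0.10 in 6CD1m against WT cells and 0.13 in the interaction. The genes higher in 6CD2m against WT cells made up 38.9% of calls, 49.7% with upper-quartile scaling and 50% with GC offsets. Under upper-quartile scaling the mean levels of the 10 genes moved by at most 4.68%. HSPB1 is limited by its low counts.

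The counts below give the called members of the 10, then all genes called, and compare with 0 and 82 (WT on Tubastatin A against PCI-34051), 0 and 155 (6CD1m against WT), 2 and 2309 (6CD2m against WT), 0 and 2142 (8CDm against WT), 3 and 2577 (6CD2m against 6CD1m), 2 and 1008 (interaction) and 2 and 4807 (5 groups). Below, a count of members over the 5 groups given without a count of all genes cannot be set against a share of genes. DESeq2 called 705 genes between WT groups, 617 in 6CD1m, 3642 in 6CD2m and, in 8CDm, 1 member and 3848 genes. It called 6 members and 4272 genes in 6CD2m against 6CD1m, 1959 genes in the interaction, and 6 members and 8599 genes over the 5 groups. At a false discovery rate of 0.05 there were 1 and 1851 (WT groups), 1 and 1847 (6CD1m), 5 and 6409 (6CD2m), 1 and 7059 (8CDm), 7 and 7884 (6CD2m against 6CD1m), 3 and 3767 (interaction) and 9 and 12083 (5 groups). GC offsets gave 237 genes (WT groups), 292 genes (6CD1m) and 5 (6CD2m), 7 (6CD2m against 6CD1m), 1 (interaction) and 7 members (5 groups). Over all genes they called 1585 higher and 1585 lower in 6CD2m, and 1824 and 1523 in 6CD2m against 6CD1m. In the interaction these were 755 and 734. Without a filter there were 320 genes (WT groups), 428 genes (6CD1m), 1 (8CDm) and 7 members (6CD2m against 6CD1m), and 6 members and 7331 genes over the 5 groups. Of 35665 genes, 1492 were then called higher and 1536 lower in 8CDm, and 1989 and 1575 in 6CD2m against 6CD1m. With at least 10 counts in every library there were 101 genes (6CD1m), 5 members (6CD2m against 6CD1m) and 4 members (5 groups). Of 14455 genes, 1158 were then called higher and 1259 lower in 6CD2m against 6CD1m. Upper-quartile scaling gave 6 members (6CD2m against 6CD1m, beside 1530 genes higher and 1300 lower) and 5 (5 groups). RLE scaling and TMM without mitochondrial and structural RNA genes kept every count within 1.5 times. The sum of HSPA1A and HSPA1B counted as 1 member, which left 1 call in 6CD2m against WT cells, the interaction and the 5 groups. With only the libraries compared there were 1 (WT groups), 9 (6CD1m), 831 (8CDm) and 1088 genes (6CD2m against 6CD1m), a fit with fewer libraries.

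With the replicate block there were 27 genes (WT groups), 76 (6CD1m) and 1411 (8CDm), and 1 member in the interaction, HSPA1B; in 6CD2m against 6CD1m HSPA5 lost its call, which it kept with the block in only the libraries compared. The block together with GC offsets gave 6 members (6CD2m against 6CD1m), 1 (interaction) and 6 (5 groups). Over all genes this fit called 1397 higher and 1194 lower in 6CD2m against 6CD1m, and 565 and 548 in the interaction. With the block and only the libraries compared, HSF1, HSP90AA1 and HSPH1 were called between WT groups, 3 of the 9 members fitted. In all, 2015 of 17263 genes were called there. This setting gave 0 genes in 6CD1m, 179 in 8CDm, and 6 members in 6CD2m against 6CD1m. In the last comparison 1416 genes were called higher and 852 lower.

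Leaving out a library gave 25 to 147 genes and 0 members (WT groups), 64 to 107 and 0 (6CD1m), 1440 to 1635 and 2 (6CD2m), 1119 to 2593 and 0 to 1 (8CDm; HSP90AA1 without library 1 of WT cells on PCI-34051), 1423 to 2317 and 2 to 3 (6CD2m against 6CD1m), 648 to 1229 and 1 to 2 (interaction), and 3402 to 6057 and 2 to 5 (5 groups; 4 without library 1 of 6CD1m and 5 without library 1 of WT cells on PCI-34051).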
